A study of Mus musculus with 40 samples.

Results

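Costimulatory and checkpoint ligands are surface proteins by which a macrophage raises or restrains the response of a T cell that touches it. The 10 genes described here were chosen by name: Cd40, Cd80, Cd83, Cd86, Cd274, Pdcd1lg2, Icosl, Tnfsf9, Tnfrsf9 and Icam1. They were chosen with earlier results of these data known, so shares over all genes stand beside them as a description only. All 10 were found among the 43430 genes of the count table, and 9 of them passed the filter on low counts, while Pdcd1lg2 did not.

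The libraries came from macrophages of 5 WT and 5 NDI1 mice, grown from bone marrow in the growth factor M-CSF (BMDMs), and were sequenced as poly(A) RNA. BMDMs of each mouse were left untreated, given LPS, given piericidin A, or given both, so that there were 40 libraries in 8 groups of 5. LPS, a bacterial lipid sensed by TLR4, was added at 100 ng ml–1 for 4 h. Piericidin A, which blocks complex I of the respiratory chain, was used at 500 nM, and was added 30 min ahead of LPS where both were given.

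NDI1 is the single-subunit NADH dehydrogenase of yeast mitochondria, which can stand in for the electron transfer of complex I and is not a target of piericidin A. The labels call the genotypes VAV-Cre WT and VAV-Cre NDI1 and give the strain as C57/Bl6, so the Cre driver is shared by all groups. NDI1 was expressed from a construct in the Rosa26 locus with a stop that Cre removes. Vav1-iCre acts in blood-forming cells at large and not in macrophages alone. According to the methods, mice of both sexes were used at 8 to 14 weeks of age, and the sex of each mouse was not used here. The 4 libraries of a mouse share its number in the labels. The groups compared are therefore 5 separate animals of each genotype, each divided over 4 treatments.

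A T cell needs a signal from its antigen receptor and a further signal from costimulatory receptors. CD80 and CD86, of the B7 family, bind CD28, which activates, and CTLA-4, which restrains. PD-L1 (Cd274) and PD-L2 (Pdcd1lg2) bind PD-1 and restrain, and ICOSL (Icosl) binds ICOS. CD40 on the macrophage receives CD40 ligand from helper T cells. 4-1BB ligand (Tnfsf9) binds 4-1BB (Tnfrsf9), a receptor of the TNF receptor superfamily. ICAM-1 (Icam1) holds the contact together through the integrin LFA-1, and CD83 keeps CD86 and MHC class II on the surface by opposing the ubiquitin ligase MARCH1. TLR4 signals act on many of these genes through NF-kappaB and interferon.

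In the table's mm10 coordinates Cd40 lies at chr2:165055627-165072948, Cd80 at chr16:38458933-38486933, Cd83 at chr13:43785107-43803130, Icosl at chr10:78069360-78079525 and Tnfrsf9 at chr4:150914562-150946102. Icam1 lies at chr9:21015960-21028797 and Tnfsf9 at chr17:57105385-57107757, and these are on the plus strand, whereas Cd86, at chr16:36603869-36666081, is on the minus strand. The PD-1 ligand genes are neighbours on the plus strand of chromosome 19, with Cd274 at chr19:29367455-29388095 and Pdcd1lg2 at chr19:29410919-29471157. Values are reads over the exons of each gene.

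The libraries held 6950748 to 13552070 counts, with a median of 10361773.5. Summed macrophage markers (7 genes, among them Csf1r, Adgre1 and Cd68) stood at 19260 to 37710 CPM (counts scaled to library size) in every library. Libraries of 2 mice, WT mouse 496 and NDI1 mouse 503, stood apart on the second principal component, which held 7.32% of the variance. The summed neutrophil markers (7 genes, among them S100a8 and Ngp) were 436 to 2646 CPM in WT mouse 496 and 416 to 815 CPM in NDI1 mouse 503, and at most 167 CPM in the other 8 mice. Results are therefore also given without these 2 mice where a call changed. Bulk RNA cannot tell fewer cells of a type from less RNA per cell.

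**Figure D1:**
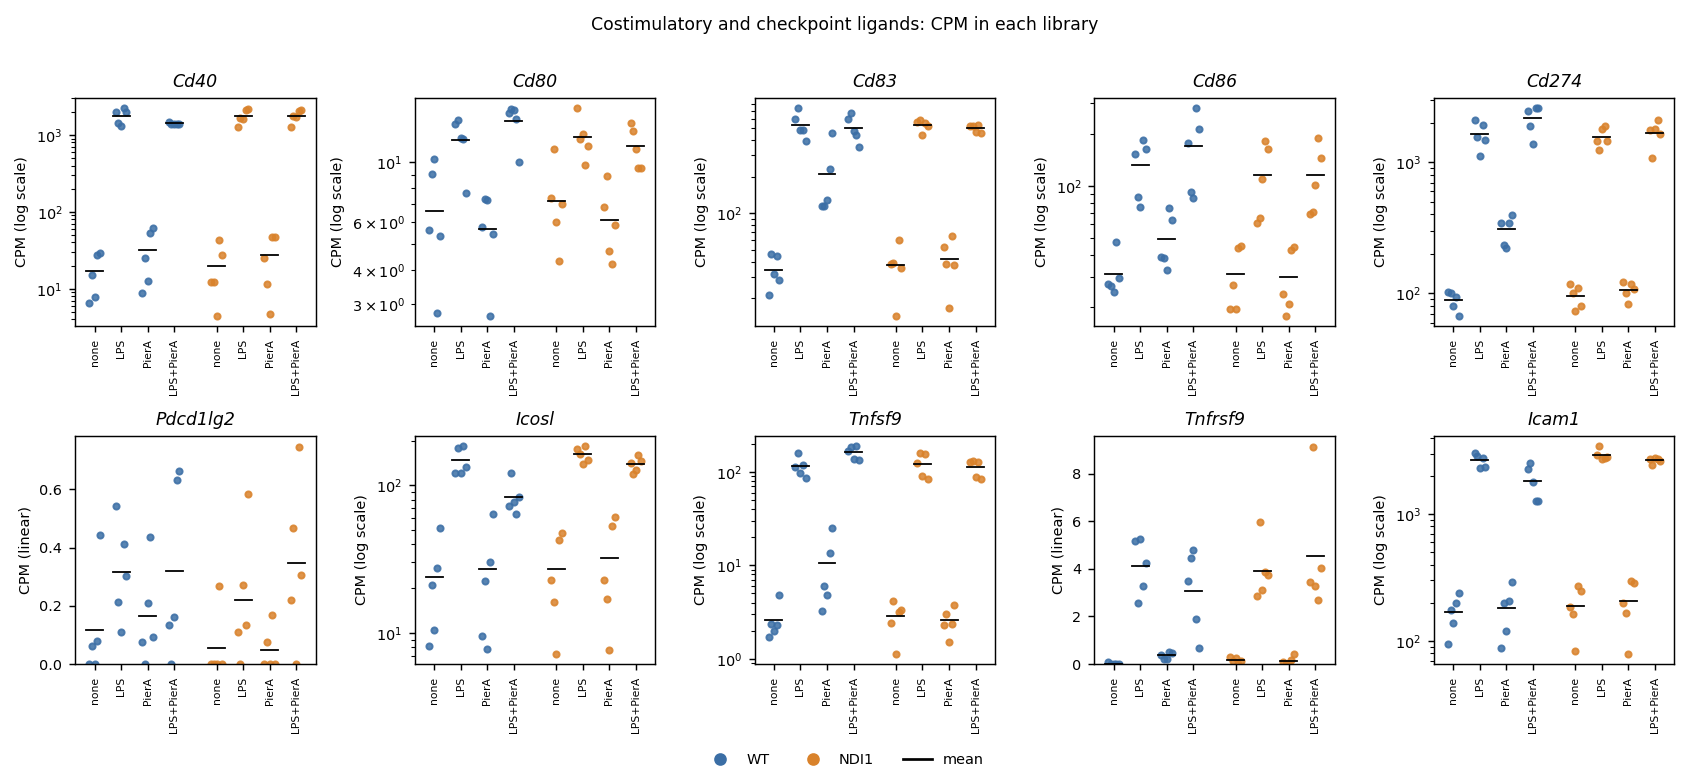
CPM of the 10 genes in each library, with WT in blue and NDI1 in orange. Each point is 1 library, bars are the means of 5 libraries, and the axes are logarithmic except for Tnfrsf9 and Pdcd1lg2, which are linear from 0. Within each genotype the libraries with LPS alone stand above the untreated ones for each gene but Cd80, whose ranges overlap, and Pdcd1lg2, which had 0 to 7 counts per library. The mean of WT BMDMs with piericidin A alone lies above all untreated and below all LPS-treated WT libraries for Cd83, Cd274, Tnfsf9, Cd40, Cd86 and Tnfrsf9.

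LPS raised 8 members in both genotypes, and in WT the rise ran from 1.82-fold for Cd80 to 104-fold for Cd40. The other tested member, Tnfrsf9, passed the filter on low counts only through the LPS groups, so it had to differ, and it is left out of the counts and medians of this comparison. A gene was called at a Benjamini-Hochberg adjusted p under 0.05 in the edgeR quasi-likelihood test over 11853 genes. In WT, 31.5% of all tested genes were called higher with LPS, and in NDI1 the share was likewise 31.5%. The median log2 fold change of the 8 members was 3.98 in WT and 3.89 in NDI1, beside −0.01 over all tested genes in each genotype. LPS-treated and untreated libraries did not overlap for 7 of the 8 members in each genotype, where 26% of all genes in WT and 24.8% in NDI1 were higher without overlap.

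**Figure D2:**
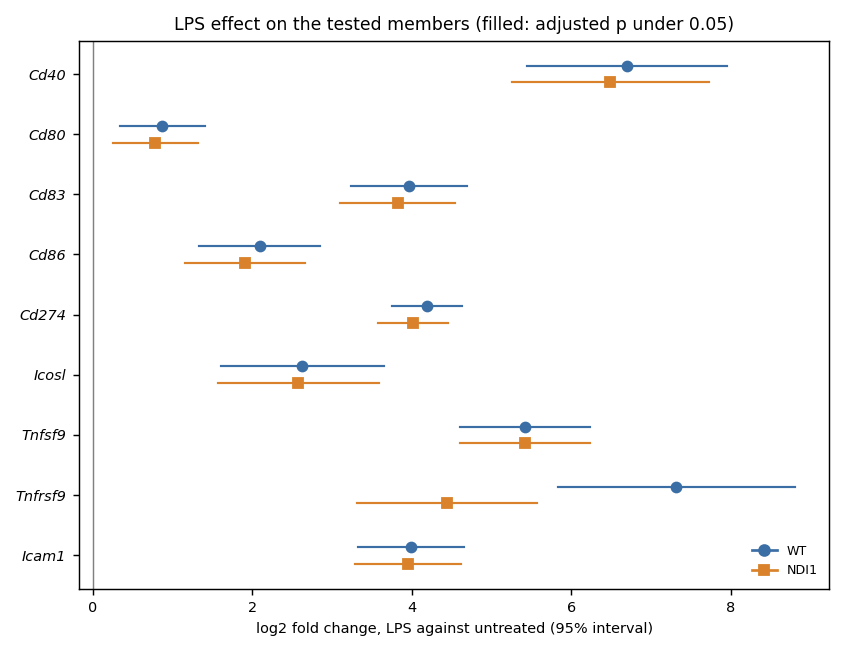
Log2 fold change of each tested member with LPS against untreated, in WT (blue circles) and NDI1 (orange squares), with 95% intervals. All symbols are filled, since all were called, and the intervals of the genotypes overlap for every member but Tnfrsf9. The fitted values of Tnfrsf9 depend on the prior count, since untreated WT libraries held 1 count in all.

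Cd40, the receptor through which helper T cells signal back to the macrophage, had the largest fold change among the members other than Tnfrsf9. Untreated WT BMDMs held 6.60, 15.2, 7.78, 27.6 and 28.8 CPM of Cd40 in mice 449, 452, 453, 496 and 520. With LPS the same 5 mice held 1978, 1438, 1320, 2225 and 1993 CPM. All LPS-treated libraries were far above all untreated ones, and the untreated libraries differed more among themselves, in proportion, than the treated ones did. The fold change of Cd40 was 104 (95% interval 43.7 to 247, adjusted p = 6.7e-12, edgeR) in WT and 89.99 (38.1 to 212, adjusted p = 1.2e-11) in NDI1.

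Tnfsf9, which encodes 4-1BB ligand, rose from 1.71, 2.37, 1.96, 2.31 and 4.82 CPM in untreated WT BMDMs to 111, 158, 98.2, 120 and 86.2 CPM with LPS, in the same order of mice. No library of one group reached the other. The fold change was 42.9 (24.4 to 75.4) in WT and 42.7 (24.3 to 75.1) in NDI1, with adjusted p = 2.1e-14 and 2.4e-14 in edgeR.

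Its receptor gene Tnfrsf9 had a single count over the 5 untreated WT libraries. With LPS these mice gave 38, 24, 47, 24 and 28 counts. The ratio of the summed counts, scaled for depth, was 291 with a counting interval of 51.4 to 11600, which covers counting error only. Untreated NDI1 libraries held 4, 2, 3, 0 and 2 counts in mice 447, 460, 461, 503 and 521, and LPS-treated ones 26, 53, 23, 29 and 32, a ratio of 23.2 (12.6 to 47.4). These counts are given as a description, since the LPS groups brought the gene into the test. The levels with LPS, 4.10 ± 1.17 CPM in WT and 3.92 ± 1.24 CPM in NDI1 (SD, n = 5), were low beside those of its ligand.

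Cd274, which encodes PD-L1, rose from 102, 102, 80.6, 93.6 and 67.7 CPM in untreated WT BMDMs to 2088, 1546, 1120, 1918 and 1484 CPM with LPS. The untreated libraries lay close together, and the lowest treated library was more than 10 times the highest untreated one. The fold change was 18.3 (13.5 to 24.9, adjusted p = 1.7e-18, edgeR) in WT and 16.2 (12.0 to 22.0, adjusted p = 4.5e-18) in NDI1, the smallest p among the members. Pdcd1lg2, for the other PD-1 ligand, held 12 counts over 5 LPS-treated WT libraries and 9 over 5 untreated ones, a depth-scaled ratio of 2.41 (0.931 to 6.47). In NDI1 it held 9 counts with LPS and 3 without (4.70, 1.17 to 27.0). Both counts are too low for a test at this depth.

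Icam1, for the adhesion ligand of LFA-1, was the member with the highest level in both states. It went from 94.9, 174, 140, 198 and 238 CPM in untreated WT BMDMs to 3036, 2895, 2313, 2765 and 2367 CPM with LPS. The groups did not overlap, and mouse 449, lowest without LPS, was highest with it. The fold change was 15.8 (9.98 to 25.1, adjusted p = 3.6e-13, edgeR) in WT and 15.4 (9.74 to 24.5, adjusted p = 4.6e-13) in NDI1.

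Cd83 rose from 21.3, 46.5, 31.9, 44.4 and 28.4 CPM in untreated WT BMDMs to 597, 733, 487, 482 and 397 CPM with LPS, without overlap. The fold change was 15.6 (9.44 to 25.9, adjusted p = 4.4e-12, edgeR) in WT and 14.2 (8.59 to 23.4, adjusted p = 9.6e-12) in NDI1. Icosl rose less, from 23.8 ± 17.4 to 147 ± 31.2 CPM in WT (SD, n = 5), a fold change of 6.18 (3.05 to 12.5) with adjusted p = 2.4e-05, and 5.97-fold in NDI1 (2.95 to 12.1) with adjusted p = 3.0e-05 in edgeR.

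The CD28 ligands differed from each other. Cd86 rose from 27.4, 26.5, 24.5, 47.4 and 29.4 CPM to 153, 86.5, 75.3, 184 and 163 CPM in WT, a fold change of 4.26 (2.52 to 7.21, adjusted p = 8.5e-06, edgeR), without overlap. Cd80 rose from 5.62, 9.03, 10.3, 2.78 and 5.33 CPM to 13.9, 14.3, 12.3, 12.2 and 7.72 CPM, a fold change of 1.82 (1.26 to 2.64, adjusted p = 0.0045). The ranges of Cd80 overlapped, although it was higher with LPS in each of the 5 mice. In NDI1 the fold change was 3.75 (2.22 to 6.32) for Cd86 and 1.72 (1.19 to 2.49) for Cd80, with adjusted p = 3.3e-05 and 0.0096. Without NDI1 mouse 447 the rise of Cd80 in NDI1 missed the threshold (adjusted p = 0.053).

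None of the 8 members other than Tnfrsf9 had a called difference of the LPS effect between genotypes, and 0% of all tested genes had one. At an unadjusted p under 0.05, 0 of these 8 members and 0.532% of all genes passed in the edgeR test, which has no adjustment there. Tnfrsf9 is left out, since it passed the filter only through the LPS libraries. Untreated WT held 1 count of Tnfrsf9 and untreated NDI1 held 11. The 95% intervals of the difference stayed within 1 log2 unit for Cd80 (−0.83 to 0.67), Cd274 (−0.72 to 0.38) and Icam1 (−0.87 to 0.80). Those of Cd40 (−1.61 to 1.19), Icosl (−1.41 to 1.31), Cd86 (−1.22 to 0.85) and Cd83 (−1.06 to 0.78) were wider. A 2-fold difference was not resolved for these genes, and the interval of Tnfsf9 (−1 to 0.99) just reached that size.

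Markers of other cells were measured beside these rises. Of the dendritic cell markers, 0 of the 3 that passed the filter without the LPS libraries were called with LPS in WT, or 1 (Siglech, higher) when mice were blocked. Ccr7 and Xcr1 passed only through these libraries, and the summed 7 markers spanned 1.62 to 5.96 CPM untreated and 11.8 to 35.0 CPM with LPS. Of the 5 neutrophil markers that passed without them, 0 were called, or 4 higher with the block, where 36.4% of all genes were higher. In NDI1, 0 of these 3 dendritic cell and 0 of these 5 neutrophil markers were called. With the block, 1 dendritic cell marker was lower and 4 neutrophil markers higher in NDI1, and the share over all genes is not given there. The part of these cells in the rises was not tested.

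The order of mean levels is given per kilobase of the table's gene length, which allows only a rough comparison of genes. That length is 7596 bases for Cd40 and 10994 for Tnfrsf9, and the length of the transcripts made was not measured. In LPS-treated WT BMDMs Icam1 stood at 1053 CPM per kb, Cd274 at 450 and Cd83 at 252, ahead of Cd40 at 236 and Tnfsf9 at 93.2. Icosl at 53.5, Cd86 at 28.1 and Cd80 at 7.10 followed, and Tnfrsf9 and Pdcd1lg2 were under 1. In untreated WT Icam1 (66.5), Cd274 (24.6) and Cd83 (16.1) were the first 3 as well, while Cd40 (2.26) was below Icosl (8.63), Cd86 (6.58) and Cd80 (3.89). With LPS Cd40 thus stood above all 3 of these. Ranks were not tested.

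Piericidin A alone raised 4 of the 9 tested members in WT BMDMs: Cd83, Cd274, Tnfsf9 and Tnfrsf9. None was called in NDI1 BMDMs, where at an unadjusted p under 0.05 in edgeR 0 of 9 members and 0.489% of genes passed. Of all tested genes, 7.79% were called higher in WT and 0% in NDI1. The median log2 fold change of the 9 members was 0.89 in WT, beside 0.00 over all genes, and 0.11 in NDI1. Beside these counts, 3 members (Cd83, Cd274 and Tnfrsf9) were higher in all WT libraries with piericidin A than in all without, as were 5.56% of genes. Tnfrsf9 is counted here although it passed the filter only through the LPS libraries and had few counts without LPS.

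**Figure D3:**
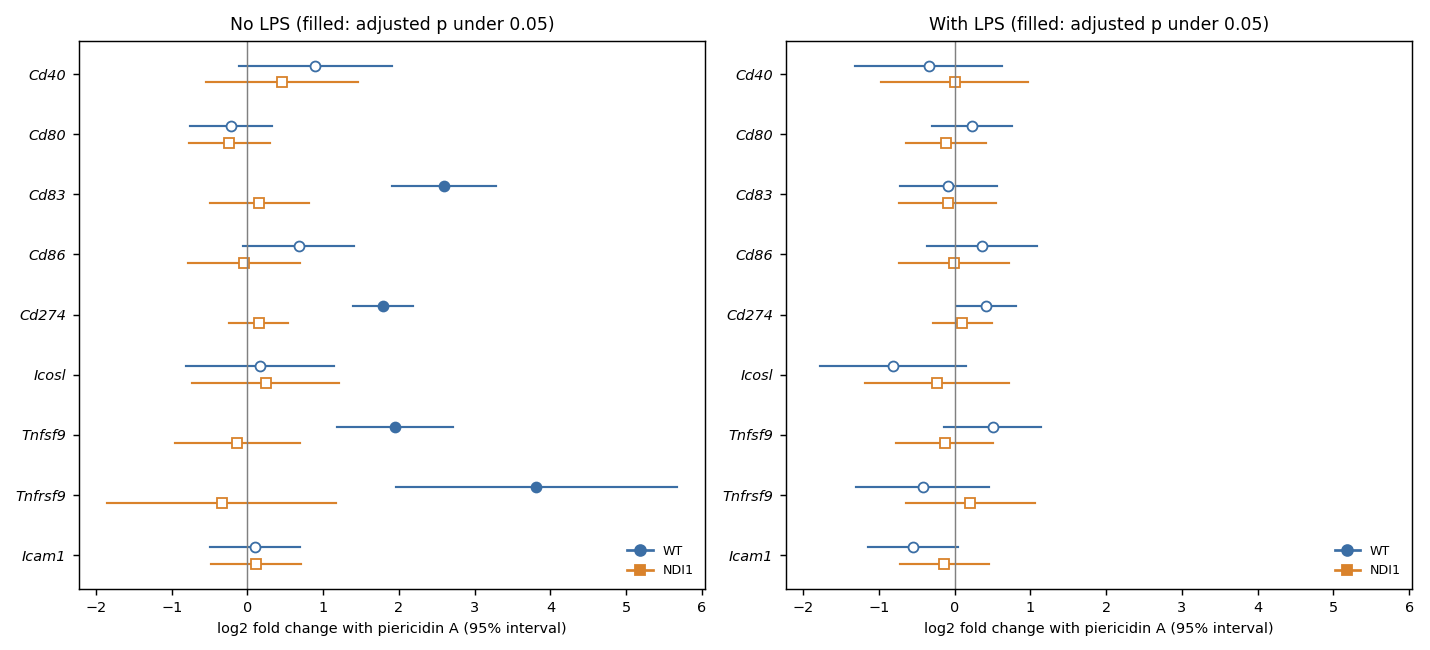
Log2 fold change of each tested member with piericidin A, without LPS (left) and with LPS (right), in WT (blue circles) and NDI1 (orange squares), with 95% intervals. Filled symbols were called. Only Cd83, Cd274, Tnfsf9 and Tnfrsf9 in WT without LPS are filled, and all NDI1 intervals include 0.

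Cd83 had the largest fold change among the 3 of these with more than a few counts. With piericidin A alone, WT BMDMs held 116, 116, 129, 231 and 455 CPM of Cd83 in mice 449, 452, 453, 496 and 520, where the untreated libraries of these mice held 21.3, 46.5, 31.9, 44.4 and 28.4 CPM. Every treated library was above every untreated one, and mouse 520, second lowest at rest, was highest with piericidin A. The fold change was 6.06 (3.76 to 9.75), a log2 fold change of 2.60 (SE 0.34, adjusted p = 1.1e-06, edgeR). The level reached, 209 ± 146 CPM (SD, n = 5), lay between that of untreated BMDMs and that of LPS-treated BMDMs and did not overlap the latter except in mouse 520.

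NDI1 BMDMs with piericidin A alone held 52.8, 38.4, 16.7, 65.2 and 37.4 CPM of Cd83 in mice 447, 460, 461, 503 and 521, against 38.5, 39.2, 14.4, 60.8 and 35.8 CPM untreated. The groups covered nearly the same range, and 4 of the 5 mice were higher with piericidin A, mouse 447 by the most. The log2 fold change was 0.16 (95% interval −0.50 to 0.81). The difference of the piericidin A effect between genotypes, called for 3 of 9 members (all smaller in NDI1) and in that direction for 1.1% of genes, was −2.44 on the log2 scale for Cd83 (SE 0.46, adjusted p = 0.0021, edgeR).

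Cd274 rose in WT from 102, 102, 80.6, 93.6 and 67.7 CPM to 345, 236, 220, 346 and 394 CPM with piericidin A alone. The groups were separate, with the lowest treated library more than 2 times the highest untreated one. The fold change was 3.46 (2.62 to 4.56), a log2 fold change of 1.79 (SE 0.20, adjusted p = 4.2e-08, edgeR). In NDI1 the levels were 117, 100, 73.5, 110 and 79.8 CPM untreated and 122, 102, 83.6, 119 and 107 CPM with piericidin A. All 5 NDI1 mice were slightly higher with piericidin A, by a log2 fold change of 0.15 (−0.24 to 0.54) that was not called. The genotype difference was −1.64 (SE 0.27, adjusted p = 3.8e-04).

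Tnfsf9 held 3.26, 5.99, 4.77, 13.4 and 24.9 CPM in WT with piericidin A alone, against 1.71, 2.37, 1.96, 2.31 and 4.82 CPM untreated. It was higher in each of the 5 mice, but the ranges overlapped, since untreated mouse 520 stood above treated mice 449 and 453. The fold change was 3.87 (2.27 to 6.57, adjusted p = 4.3e-04, edgeR). In NDI1, Tnfsf9 was 2.84 ± 1.13 CPM untreated and 2.60 ± 0.84 CPM with piericidin A (SD, n = 5). The genotype difference was −2.08 (SE 0.56, adjusted p = 0.049), just inside the threshold, and it was called in 6 of 17 alternative analyses. It missed the threshold in each fit that left out 1 mouse other than WT mice 452 and 453, with a log2 difference of −1.82 without mouse 520 (adjusted p = 0.074), and without the 2 mice that stood apart it was −1.86 (adjusted p = 0.36).

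Tnfrsf9 gave 5, 3, 3, 6 and 5 counts in WT libraries with piericidin A and 1, 0, 0, 0 and 0 without. The depth-scaled ratio was 24.6 with a counting interval of 3.97 to 1010. The edgeR fit gave a fold change of 14.1 (3.89 to 50.8, adjusted p = 0.0040). All treated libraries had at least 3 counts and 4 of the 5 untreated ones had 0. NDI1 libraries gave 1, 0, 0, 2 and 6 counts with piericidin A and 4, 2, 3, 0 and 2 without, a ratio of 0.771 (0.283 to 2.05). The genotype difference missed the threshold (adjusted p = 0.081), and was called with DESeq2 and without NDI1 mouse 521. Without the 2 mice that stood apart the rise of Tnfrsf9 in WT was not called (adjusted p = 0.056), while those of Cd83, Cd274 and Tnfsf9 were.

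Cd86 went from 27.4, 26.5, 24.5, 47.4 and 29.4 CPM to 39.1, 38.5, 32.6, 74.3 and 63.3 CPM in WT with piericidin A. It was higher in all 5 mice, though the groups overlapped because mouse 496 was high in both. The log2 fold change of 0.67 (−0.06 to 1.41) was not called (adjusted p = 0.22), whereas with the mouse as a block it was (0.64, adjusted p = 0.0011), as was its genotype difference (−0.69, adjusted p = 0.032 against 0.66 without the block). With the block 17.2% of all genes were called higher in WT, and 5.15% had a smaller effect in NDI1. Cd40 was likewise higher in all 5 WT mice, as were 21.5% of all genes, by a log2 fold change of 0.89 (−0.12 to 1.90), and was not called (adjusted p = 0.24) with or without the block.

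The other members gave small values. With piericidin A alone in WT, Icam1 had a log2 fold change of 0.10 (−0.49 to 0.70), Icosl 0.16 (−0.81 to 1.14) and Cd80 −0.22 (−0.75 to 0.32). The upper ends of these intervals lie below the lower end of that of Cd83, which is 1.91. By group means, piericidin A changed the order of levels per kilobase in WT. Cd83 (97.6 CPM per kb) and Cd274 (85.1) stood above Icam1 (71.5), which was first in each of the other 7 groups. The Cd83 mean of 209 CPM was drawn up by mouse 520 (455 CPM), and its median was 129 CPM. In mouse 452, Cd83 (116 CPM) stood below Icam1 (200 CPM), also per kilobase, so the order did not hold in every mouse. These ranks were not tested.

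Neutrophil markers were measured in these WT libraries as well. Their median log2 fold change with piericidin A alone was 1.52, with 0 of 6 tested markers called. With the mouse as a block, 4 of 6 were called higher, as were 17.2% of all genes. Summed, they spanned 21.2 to 436 CPM untreated and 27.9 to 1452 CPM with piericidin A in WT, and 11.9 to 416 and 17.9 to 530 CPM in NDI1. B cell markers had a median of 1.44, with 0 of 4 called, at 0.747 to 8.67 CPM in sum with piericidin A. Without the 2 mice that stood apart, the log2 fold changes in WT were 2.68 for Cd83 (adjusted p = 2.3e-05), 1.77 for Cd274 (adjusted p = 4.4e-06) and 1.79 for Tnfsf9 (adjusted p = 0.013), and Tnfrsf9 was not called. The part of these cells in the rises was not tested.

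NDI1 and WT BMDMs were compared directly in each treatment. Untreated, none of the 9 members was called and 0% of all genes were, and with LPS the counts were again 0 and 0%. With both agents 0 of 9 members were called at an adjusted or an unadjusted p under 0.05, where 12% and 27.1% of genes were. At an unadjusted p under 0.05, Tnfrsf9 alone passed untreated (0.329% of genes) and no member passed with LPS (1.19% of genes). With piericidin A alone, 3 members were lower in NDI1, namely Cd83 (log2 difference −2.31, adjusted p = 1.0e-05), Cd274 (−1.53, adjusted p = 1.1e-06) and Tnfsf9 (−1.99, adjusted p = 5.3e-04, edgeR), where 4.31% of all genes were lower. Cd83 and Cd274 were lower in all NDI1 libraries than in all WT libraries, as were 3.28% of genes. These comparisons share their WT and NDI1 libraries with the treatment effects above.

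**Figure D4:**
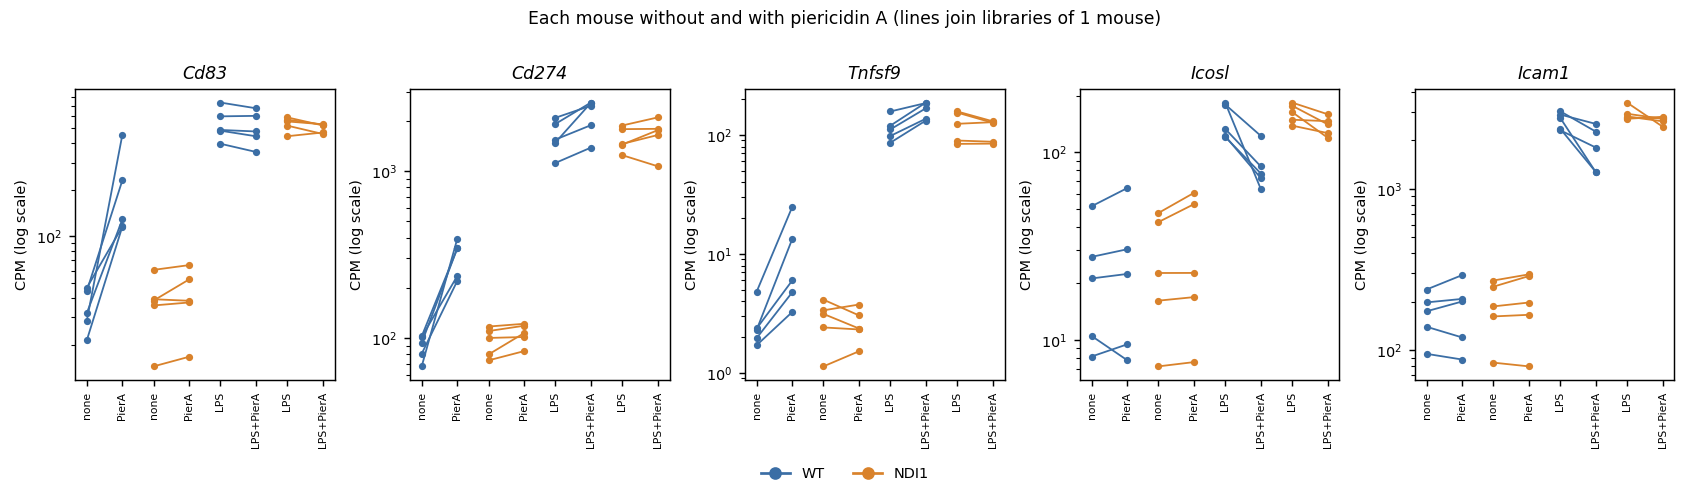
CPM of 5 members in each mouse without and with piericidin A, on logarithmic axes, with a line joining the 2 libraries of a mouse. WT is blue and NDI1 is orange, first without LPS and then with LPS. In WT without LPS, Cd83 and Cd274 climb in every mouse. In WT with LPS, Icosl and Icam1 decline in every mouse and Cd274 and Tnfsf9 climb, while of the NDI1 mice with LPS none is higher for Icosl and 4 of 5 are higher for Cd274.

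With LPS present, piericidin A changed none of the 9 members by the threshold in either genotype, by edgeR, although 7.81% of all genes were called higher and 8.92% lower in WT. At an unadjusted p under 0.05, 1 member passed in WT (31.1% of genes) and none in NDI1 (1.07%). Of the 9 members, 6 moved the same way in each of the 5 WT mice, with Cd274, Tnfsf9, Cd86 and Cd80 higher and Icosl and Icam1 lower, where 16.1% of all genes were higher and 21.5% lower in every mouse, so such moves were common. Cd274 went from 2088, 1546, 1120, 1918 and 1484 CPM with LPS to 2470, 1887, 1385, 2578 and 2569 CPM with both, higher in all 5 mice with overlapping ranges. Its log2 fold change was 0.42 (0.03 to 0.81, adjusted p = 0.13, edgeR), and with the mouse as a block it was called (0.41, adjusted p = 0.023), where 15.6% of all genes were higher. In the same comparison 0 of 6 neutrophil markers were called, or 5 of 6 with the block, with a median log2 fold change of 1.33, and their part was not tested.

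Tnfsf9 went from 111, 158, 98.2, 120 and 86.2 CPM to 168, 186, 137, 188 and 133 CPM, higher in all 5 WT mice, with a log2 fold change of 0.50 (−0.14 to 1.15, adjusted p = 0.29). All 5 WT libraries with both agents stood above all 5 NDI1 libraries with both, which held 84.7 to 131 CPM, and 2.73% of genes were lower in NDI1 without overlap. That difference was not called (log2 difference −0.54, adjusted p = 0.27).

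Cd86 went from 153, 86.5, 75.3, 184 and 163 CPM with LPS to 177, 92.1, 85.7, 280 and 214 CPM with both in WT, and its log2 fold change was 0.36 (−0.36 to 1.09, adjusted p = 0.52, edgeR). Cd80 went from 13.9, 14.3, 12.3, 12.2 and 7.72 CPM to 15.2, 15.7, 15.5, 14.4 and 9.98 CPM, a log2 fold change of 0.22 (−0.31 to 0.75, adjusted p = 0.59). The ranges overlapped for both, and in NDI1 Cd86 was higher in 3 of 5 mice and Cd80 in 1 of 5.

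Icosl and Icam1 were lower in all 5 WT mice. Icosl went from 122, 179, 120, 183 and 133 CPM with LPS to 72.7, 122, 76.9, 63.5 and 83.8 CPM with both, and the ranges overlapped only through mouse 452. Its log2 fold change was −0.82 (−1.78 to 0.15, adjusted p = 0.24). Icam1 went from 3036, 2895, 2313, 2765 and 2367 CPM to 2268, 2532, 1807, 1271 and 1275 CPM, lowest in mice 496 and 520, with a log2 fold change of −0.55 (−1.14 to 0.04, adjusted p = 0.20). In NDI1 the values were −0.23 (−1.18 to 0.72) for Icosl and −0.14 (−0.73 to 0.45) for Icam1. In a fit of the 2 compared groups alone, Icosl was called lower (−0.76, adjusted p = 0.025) and Tnfsf9 higher (0.56, adjusted p = 0.046) in WT, where 2.75% of the genes tested in that fit were lower and 5.82% higher.

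Cd40 became uniform in WT with both agents, at 1475, 1396, 1384, 1409 and 1395 CPM, beside 1320 to 2225 CPM with LPS alone. The spread was 36.3 CPM (SD, n = 5) against 391 CPM, and 330 CPM in NDI1 with both, a pattern chosen after the values were seen and not tested. Cd83 was 539 ± 129 CPM with LPS and 509 ± 128 CPM with both in WT, a log2 fold change of −0.08 (−0.73 to 0.56). No genotype difference of the piericidin A effect with LPS was called among the 9 members, where 0.979% of all genes had one. At an unadjusted p under 0.05, 0 of 9 members and 14% of genes passed.

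The LPS effect itself was smaller in the presence of piericidin A for 2 of the 8 members other than Tnfrsf9 in WT, where 2.16% of genes had a smaller effect. Tnfrsf9 is left out here as well, since the LPS groups brought it into the test. The difference was −2.68 on the log2 scale for Cd83 (SE 0.46, adjusted p = 3.2e-04) and −1.37 for Cd274 (SE 0.27, adjusted p = 0.0021, edgeR). For Cd83 and Cd274 the fold change with piericidin A was larger without LPS (2.60 and 1.79 on the log2 scale) than with LPS (−0.08 and 0.42). Tnfsf9 had a difference of −1.45 (adjusted p = 0.081), which was called with the mouse as a block (−1.37, adjusted p = 0.024), where 9.48% of genes had a smaller effect. In NDI1, 0 of these 8 members and 0% of genes were called, and at an unadjusted p under 0.05 0 of 8 members and 0.658% of genes passed.

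The stretch upstream of a RefSeq start site is shown for Icam1, which rose with LPS but not detectably with piericidin A alone, and for Cd274 and Tnfrsf9, which rose with piericidin A alone. Sequences were taken from RefSeq on GRCm38 (mm10), which gave a start site for 6 of the 10 members, and each line holds the 250 bases before the start on the plus strand. Both Tnfrsf9 start sites lie inside the gene span of the annotation given above, so their windows are not upstream of that whole span. Capitals mark matches, on either strand, to the NF-kappaB consensus, the RelA-type NF-kappaB consensus, the AP-1 site TGANTCA, the interferon-related GAS site TTCNNNGAA, the ISRE core and the ATF4-type site TGATGNAA.
Icam1, chr9:21015690-21015939: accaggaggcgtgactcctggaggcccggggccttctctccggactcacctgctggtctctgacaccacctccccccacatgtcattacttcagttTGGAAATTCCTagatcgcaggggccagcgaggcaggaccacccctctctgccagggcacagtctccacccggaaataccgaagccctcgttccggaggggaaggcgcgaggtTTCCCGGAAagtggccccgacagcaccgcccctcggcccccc
Cd274, chr19:29367188-29367437: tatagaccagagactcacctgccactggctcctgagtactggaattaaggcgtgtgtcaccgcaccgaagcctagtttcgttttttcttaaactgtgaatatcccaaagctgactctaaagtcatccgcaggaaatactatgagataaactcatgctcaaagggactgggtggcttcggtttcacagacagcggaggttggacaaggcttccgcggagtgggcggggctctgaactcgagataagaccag
Tnfrsf9 (second of 2 start sites), chr4:150927749-150927998: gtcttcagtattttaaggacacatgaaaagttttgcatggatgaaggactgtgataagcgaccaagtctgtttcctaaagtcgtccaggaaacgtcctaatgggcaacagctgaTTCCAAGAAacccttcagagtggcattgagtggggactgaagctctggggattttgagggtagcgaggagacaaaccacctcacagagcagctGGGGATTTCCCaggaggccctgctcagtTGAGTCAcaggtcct

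In the Icam1 stretch the capitals mark overlapping RelA-type matches of both strands that begin 154 and 153 bases before the start, and a GAS match at 42 bases. The Tnfrsf9 stretch holds overlapping NF-kappaB consensus matches at 43 and 42 bases, an AP-1 match at 15 bases and a GAS match at 136 bases. The window of the first Tnfrsf9 start site, chr4:150919905-150920154, held no match, and its sequence is not shown. The Cd274 stretch has no capitals either, which says only that these letters are not in these windows. Of 32851 windows of the same length, 7.25% hold the NF-kappaB consensus, 6.94% the RelA-type, 6.75% the AP-1 site and 7.02% the GAS site. The ISRE core was in 2.98% and the ATF4-type site in 3.45% of windows, and neither was in a window of the 6 members that had one. Windows not shown also held matches. Pdcd1lg2, which had few counts, held an NF-kappaB consensus match at 244 bases. Icosl held overlapping NF-kappaB consensus and RelA-type matches at 111 and 112 bases, and Cd80 an AP-1 match at 42 bases. Matches were thus not limited to the genes shown.

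The genes with the profile most like that of a member were sought among 9943 genes, by the root mean square difference, over the 8 groups, of the mean log2 CPM centred on each gene. Tiparp, a poly(ADP-ribose) polymerase of the aryl hydrocarbon response, was closest to Cd274, at 0.0839 log2 units. Il1rn, for the IL-1 receptor antagonist, was closest to Tnfsf9 (0.166), and Flrt3 closest to Cd83 (0.172). Cd40 lay nearest to the chemokine genes Ccl12 (0.154) and Ccl5 (0.181), Icosl to Acsl1 (0.0757) and Mmp14 (0.0841), and Icam1 to Gca (0.076) and Fam241a (0.0792). Cd86 lay nearest to Ptpn2 (0.126) and Plcl2 (0.13), Cd80 to Gcc1 (0.0815) and Ppp2r1b (0.0844), and Tnfrsf9 to Heg1 (0.186) and Pfkfb3 (0.203). The next after the first of Cd83, Cd274 and Tnfsf9 were Gm26885 (0.214), Gm5345 (0.154) and Serpinb2 (0.211). Gm26885 is an antisense gene that overlaps Pim1 and Gm5345 a processed pseudogene, so their counts are uncertain. Serpinb2 shares exon bases with Serpinb10.

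Other genes of the same pathways were listed by role. Over all genes 31.5% were higher and 31% lower with LPS in WT, and 7.79% higher and 7.05% lower with piericidin A alone. LPS counts of the lists are over genes that passed the filter without the LPS libraries, and leave out Tnfsf4, Tnfsf8, Tnfsf18 and Icam5, which passed only through these. Of the other costimulatory genes of the TNF superfamily, 3 of 4 were higher with LPS in WT, with a median log2 fold change of 2.46. They were Tnfsf15 (6.02), Tnfrsf8 (3.28), for the receptor CD30, and Tnfrsf14 (1.64). Tnfsf14, for LIGHT, was the member of this list called with piericidin A alone. It stood at 0.954 ± 0.444 CPM untreated and 10.8 ± 8.15 CPM with piericidin A in WT (SD, n = 5), a log2 fold change of 3.48 (adjusted p = 1.4e-05, edgeR), and its genotype difference was −3.40 (adjusted p = 0.013).

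Of the other inhibitory genes, 6 of 10 were higher and 1 lower (2 lower with the block) with LPS in WT, and 2 of 10 were higher with piericidin A alone. Cd200, whose product restrains myeloid cells through its receptor, rose with LPS from 1.15 ± 0.565 to 41.0 ± 19.5 CPM, a log2 fold change of 5.14 (adjusted p = 5.3e-14, edgeR). Piericidin A alone brought Cd200 to 6.59 ± 3.34 CPM in WT, a log2 fold change of 2.51 (adjusted p = 2.5e-05), with a genotype difference of −2.59 (adjusted p = 0.013). Pvr, a ligand of TIGIT, rose by 2.02 with LPS and by 0.67 with piericidin A alone. Lgals9 (2.41), Nectin2 (1.88) and Tnfrsf14 (1.64) rose with LPS as well, and Sirpa (−0.54) was the one lower.

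Of the adhesion partners at the T cell contact, 5 of 7 were higher with LPS in WT, and with piericidin A alone 0 of 8 were called, or 1 in each direction when mice were blocked. Vcam1 (5.39), Itgal (1.28), a subunit of LFA-1, and Itgax (1.27) led them with LPS. Vsir was the 1 of 2 tested B7 family genes that changed with LPS, and it was lower (−1.25). Cd28 and Itgal were the tested T cell receptors, and Cd28 was lower with LPS (−2.41, adjusted p = 1.3e-08) and higher with piericidin A alone (0.86, adjusted p = 0.033, edgeR). The 5 T cell markers summed to 0.0815 to 1.40 CPM in libraries without LPS and 6.07 to 14.9 CPM with LPS. Cd3d was at 0 counts in WT with and without LPS alone, and Lck, the marker with enough counts to be tested, passed the filter only through the LPS libraries.

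Signal adaptors downstream of CD40 and 4-1BB were called in both directions: 7 of 9 were higher and 2 lower with LPS in WT. Tnfaip3 (4.88), which ends NF-kappaB signals, and Traf1 (4.26) led the rises, and Map3k14 (−1.98), the kinase of the noncanonical pathway, was lowest. With piericidin A alone, Tnfaip3 (1.43), Traf3 (0.79) and Traf6 (0.44) were higher and Map3k14 (−0.86) lower in WT. Of 6 regulators of ligand turnover, Marchf1 (2.21), which opposes CD86 on the surface, and Cmtm6 (1.93), which keeps PD-L1 there, were higher with LPS, as was Spop (0.84), whereas Cmtm4 (−1.49), Marchf8 (−0.36) and Stub1 (−0.32) were lower. Cmtm4 was the only one called with piericidin A alone (−0.44, adjusted p = 0.049). With the mouse as a block, calls with piericidin A alone were 4 higher and 1 lower among the adaptors, 3 and 1 among the inhibitory genes, 0 and 2 among the turnover genes and 1 and 1 among the T cell receptors, where 17.2% of all genes were higher and 16.9% lower.

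**Figure D5:**
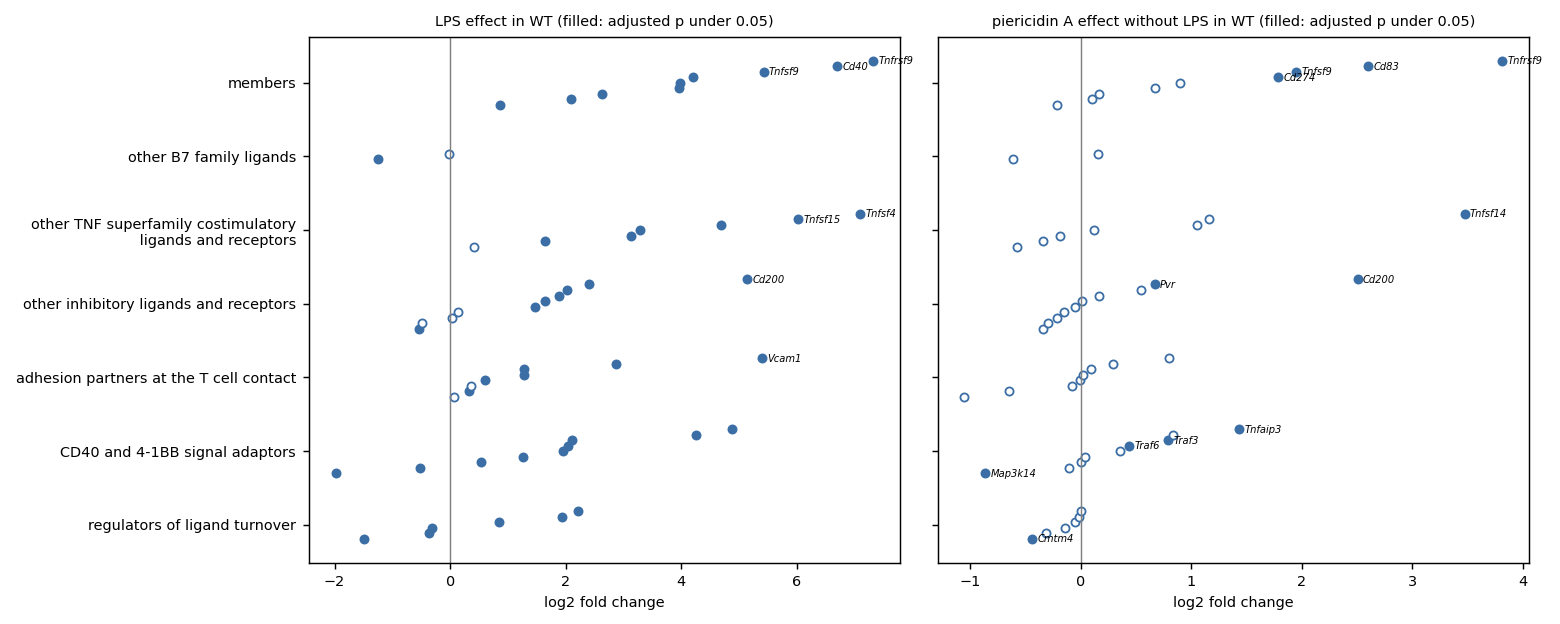
Log2 fold changes in WT of the 9 tested members and of 6 lists of related genes (the T cell receptors are not drawn), with LPS (left) and with piericidin A alone (right). Each point is 1 gene, and filled points had an adjusted p under 0.05. Tnfrsf9, Tnfsf4, Tnfsf8, Tnfsf18 and Icam5 are drawn although they passed the filter only through the LPS libraries. Tnfsf14 and Cd200 are the genes of the other lists farthest to the right with piericidin A alone, at 3.48 and 2.51.

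With both agents, 2 of the 7 TNF superfamily genes were higher and 2 lower than with LPS alone in WT, where 7.81% of all genes were higher and 8.92% lower. Tnfsf14 (2.74) and Tnfsf15 (1.47) rose, and Tnfrsf14 (−1.09), which encodes a receptor for LIGHT, and Tnfrsf8 (−0.77) fell. Of the 9 adaptors, Traf3 (1.17) and Traf6 (0.36) were higher and Birc2 (−0.55) and Traf2 (−0.41) lower. Vsir (0.67) was higher, and Marchf1 (−1.02), Tnfrsf14 and Cd47 (−0.41) were the turnover and inhibitory genes that were lower, all with adjusted p between 4.6e-04 and 0.036 in edgeR. With the mouse as a block, 4 of 10 inhibitory genes were called lower in place of 2, and 3 of 8 adhesion partners in place of 0. The 6 turnover regulators then had 1 called higher and 3 lower, and the T cell receptors 1 in each direction, where 15.6% of all genes were higher and 18.9% lower with the block.

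Exons of 3 members overlap an annotated gene on the opposite strand, by 511 bases for Cd274 and for Icam1 and by 192 bases for Tnfsf9. Whether strand was used in the counting is not given in the sources used here, so reads of these partners could not be separated, and their levels are less certain. For the same reason Marchf1, Vcam1, Nectin2, Stub1, Acsl1, Gca, Gcc1, Heg1, Ppp2r1b, Tiparp and the marker Csf1r are less certain, each of which has such a partner. Map3k14 and Lck share exon bases with a gene on their own strand.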

How the data were processed

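The authors deposited raw read counts per gene. The deposited counts had been made by the authors by trimming with Trimmomatic, alignment to mm10 with STAR and counting in exons with HTSeq; the annotation release is not given in the sources used here. Counting intervals cover counting error only, since the reads carry no molecular identifiers. A column of reads of no sample (1) was not used, and the total was 6950748 to 13552070 counts per library.

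Tests used edgeR 4.0.16 under R 4.3.3 (filterByExpr, TMM factors, quasi-likelihood fit with 1 mean for each of 8 groups). The study names both DESeq2 and edgeR. All 11853 genes that passed entered the Benjamini-Hochberg adjustment, at a threshold of 0.05. CPM are scaled by TMM. Symbols were matched for 42462 genes. Same-mouse libraries correlated in their deviations from group means (mean r 0.453 over 60 pairs, 0.0995 to 0.769, against −0.107 over 240 pairs of different mice), and their shared number in the labels gives the pairing. No 2 replicates agreed within sampling noise (lowest chi-square per degree of freedom 9.32 over 80 pairs). The fit was also run on simulated libraries without mouse effects, so that run cannot speak to the correlation within mice.

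The members are given by name. The other named genes are those of fixed lists with adjusted p under 0.05, as a rule at most 5 per list by absolute change. For LPS in WT, all 6 turnover regulators were named, and Sirpa as the inhibitory gene that was lower. For each tested member, the 2 genes of most similar profile were named too, of mean log2 CPM at least 1 with a prior count of 2. The members and lists were chosen with earlier results of these data known. Ncr3lg1 was not matched. Alternatives were DESeq2 1.42.0, RLE factors, no filter, at least 10 counts in every library, only the compared groups, the mouse as a block, each mouse left out and, added after seeing the data, leaving out 2 mice.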

Additional observations from a re-analysis of the deposited data

Results flagged for a closer look

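In 72 sets of 5 libraries (9 members in 8 groups), 7 had a library whose gap to its neighbour took more than 0.71 of the range, where chance gives about 1 in 20. In WT with LPS and piericidin A these were Cd40 in mouse 449 (1475 CPM, next 1409) and Cd80 in mouse 520 (9.98 CPM, next 14.4). In untreated WT they were Cd86 in mouse 496 (47.4 CPM, next 29.4), Tnfsf9 in mouse 520 (4.82 CPM, next 2.37) and Tnfrsf9 in mouse 449, whose 0.0815 CPM is 1 count. In NDI1 mouse 460, Tnfrsf9 was 9.13 CPM with LPS and piericidin A (next 4.06) and Icam1 was 3435 CPM with LPS (next 2927).

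The effect of piericidin A without LPS differed between genotypes, by an interaction term, for Cd83 (−2.44), Cd274 (−1.64) and Tnfsf9 (−2.08) on the log2 scale. In WT the LPS effect differed with piericidin A for Cd83 (−2.68), Cd274 (−1.37) and Tnfrsf9 (−4.24), the last being a fitted value that depends on the prior count, of a gene that passed the filter only through the LPS libraries. It was not called without WT mouse 496 (adjusted p = 0.10, edgeR), without WT mouse 520 (0.078) or without the 2 mice that stood apart (0.11).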

How the results depend on the processing

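Over 17 alternatives no tested member that was called changed direction. With the mouse as a replicate block, 1 member (Cd274) was called higher with piericidin A in LPS-treated WT, where the main analysis called 0. Beside the blocked calls given above for Cd86 and Tnfsf9, the block changed no other call of a member. With only the compared groups in the fit, 1 member was called higher (Tnfsf9) and 1 lower (Icosl) in that comparison, and 1 higher in NDI1 than in WT with both agents (Icosl, log2 difference 0.69, adjusted p = 0.034, edgeR, where 0.886% of genes were higher). The cause was not tested. Leaving out each mouse in turn gave 8 to 9 members for LPS in NDI1, 2 to 3 for the genotype difference without LPS and 2 to 3 for the change of the LPS effect in WT, with Tnfrsf9 counted in the first and the last. Across the alternatives the log2 fold change with piericidin A alone in WT spanned 1.60 to 1.92 for Cd274 and 2.04 to 2.88 for Cd83. Depth limits Tnfrsf9 and Pdcd1lg2, and with at least 10 counts required in every library Tnfrsf9 was not tested.

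Counts over all genes moved more. The block raised them from 1759 to 4049 for piericidin A alone in WT, from 1983 to 4090 with LPS, from 150 to 1062 and from 116 to 1127 for the genotype differences without and with LPS, and from 563 to 2066 for the change of the LPS effect in WT. In the same order of comparisons, leaving out WT mouse 496 gave 788, 845, 79, 35 and 163, WT mouse 520 gave 888, 841, 63, 27 and 192, and both mice that stood apart (chosen after seeing the data) gave 909, 956, 73, 18 and 187. Without WT mouse 449 the last 3 were 72, 59 and 297. The genotype difference with LPS had 255 calls without WT mouse 452, and 71, 53, 47, 66 and 60 without NDI1 mice 447, 460, 461, 503 and 521. The one without LPS had 84, 82, 86 and 83 without NDI1 mice 460, 461, 503 and 521. DESeq2 gave 285 and 225 for the genotype differences without and with LPS. With LPS the genotype difference had 72 calls without the filter. With only the compared groups, calls were 891 for piericidin A with LPS in WT, 49 for the genotype difference with LPS and 354 for the change of the LPS effect. NDI1 against WT gave 477 in place of 924 with piericidin A and 398 in place of 1421 with both agents. Without NDI1 mouse 461 these were 610 and 928, and without mouse 520 587 and 746, and with both agents 845 without mouse 496, and without both mice 458 and 574.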
